A study of Mus musculus with 9 samples.

Results

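The expression of the nuclear genes of respiratory complex I and of its assembly factors was examined in the hippocampus of mice with different doses of the ATPase inhibitory factor 1 (IF1). The genes were taken as every gene whose name on the array begins with Nduf, which gave 54 probes for 45 genes among 39429 probes and 31093 gene names. For 37 genes there was a single probe, and for the other 8 the brightest on average stands for the gene. RNA was hybridized to 1-colour Agilent mouse gene arrays with probes of 60 bases, with 1 mouse per array, 3 arrays per genotype and 9 in all. The mice were male, 9 months old and on a C57BL/6J background. IF1-KO mice carry floxed Atpif1 alleles from which Cre, driven by the Camk2a promoter, removes an exon, so that the deletion falls mainly in excitatory forebrain neurons and other cells of the hippocampus can keep the gene. IF1-TG mice carry human IF1 under a tetracycline-responsive promoter, switched on by a transactivator that is also driven by Camk2a. The control mice (CRL) are labelled as controls, and for the mice of the arrays the sources used here do not say which of these alleles they carry. In the study's neuronal cultures, controls kept intact Atpif1 alleles beside Cre, or were wild type or carriers of the transactivator alone.

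Complex I oxidizes NADH, passes the electrons through flavin and iron-sulfur clusters to ubiquinone and pumps protons across the inner mitochondrial membrane. Its core subunits carry the catalysis, its accessory subunits surround and stabilize them, and assembly factors help to build the complex without remaining in it. It is the main entry point of electrons from NADH into the respiratory chain, in neurons as elsewhere, and also a site at which mitochondrial reactive oxygen species arise, by forward and by reverse electron transfer. The array comparison asks which transcripts follow the dose of IF1, the inhibitor of the mitochondrial ATP synthase.

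Every one of the 54 Nduf probes was well above background on all 9 arrays, and no spot was saturated. Every level below is a log2 signal, set against the 75th percentile of its array, and differences are log2 differences of these levels. All 8 markers of hippocampal excitatory neurons were well above background on every array. Atpif1, the targeted gene, lay at 6.43 on the array labelled IF1-KO replicate 1, but at 5.20 and 5.53 on replicates 2 and 3 of that genotype. The CRL arrays lay from 6.19 to 6.34 for this gene and the IF1-TG arrays from 6.38 to 6.51. The array labelled IF1-KO replicate 1 thus shows no loss of the targeted transcript, and the family counts and the values described below for the IF1-KO contrasts were also computed without it. The probe is described as mouse Atpif1, and whether it also reads the human transgene of IF1-TG mice was not tested. Between 66.7% and 69.7% of the probes were well above background on IF1-TG arrays, against 71.2% to 74.9% on the other 6. Because whole hippocampus was used, fewer cells of a type and less RNA per cell cannot be told apart.

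The probes of the 5 genes that reached an unadjusted P below 0.05 in some comparison are shown first, since every value of these genes rests on them. The first 30 bases of each are given 5′ to 3′, with the position of the whole probe on mm9 as the array annotation gives it. Whether a probe lies in a coding exon or in a UTR was not analysed here.
Ndufs8, chr19:3911177-3911236, minus strand: caggagtctgaggtggacatgaagtccgca
Ndufv1, chr19:4007508-4007567, minus strand: agcctgacaatttctcatccctttgggaaa
Ndufa13, chr8:72418102-72418161, minus strand: gagatgagcaatgccaacttcggcttcacc
Ndufa9, chr6:126772000-126772060, minus strand: caagacagtcaactattagtgtcacccagg
Ndufaf5, brighter probe, chr2:139996600-139996660, plus strand: ttgaagaggaagcagaagaattgggccgcc
Ndufaf5, dimmer probe, chr2:140030900-140030960, plus strand: cgaatgcagtagcaaaactcactacgttgt
Each probe was printed as 1 spot, so that the spread between spots of a probe is not known.

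As a family the Nduf genes stayed close to the genes of the array as a whole. Between IF1-TG and CRL mice the median log2 difference of the 45 genes was 0.01, with 25 genes higher and 20 lower, against a median of 0.00 over the 21897 genes tested. Between IF1-TG and IF1-KO mice it was 0.01, with 23 higher and 22 lower, and over all genes it was also 0.01. Between IF1-KO and CRL mice it was 0.01, with 25 higher and 20 lower, and over all genes it was -0.01. Without the array in doubt, the IF1-KO labelled replicate 1, the counts were again 23 higher and 22 lower for IF1-TG against IF1-KO mice and 25 higher and 20 lower for IF1-KO against CRL mice, with medians of 0.01 and 0.02. With each of the 9 arrays left out in turn, the number higher ran from 20 to 27 for IF1-TG against CRL mice, from 22 to 26 for IF1-TG against IF1-KO mice and from 21 to 33 for IF1-KO against CRL mice. The lowest of these counts came without CRL replicate 3 and the highest, 33, without CRL replicate 1, so that the balance of signs moved with single CRL arrays. The 3 comparisons share arrays and are not independent of each other.

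Few members passed a threshold, and their shares lay near those of all genes. The thresholds of the study's methods were a fold change of at least 1.5 with a limma P below 0.05, without saying whether it was adjusted. Here the P is unadjusted and comes from a limma fit of all 9 arrays. Between IF1-TG and CRL mice 2 of the 45 genes passed both, Ndufa13 and Ndufs8, where 4.31% of all genes did, and both were higher, as were 2.07% of all genes. At an unadjusted P below 0.05 alone there were 4 genes in this comparison, with Ndufv1 and Ndufa9 added, where 8.12% of all genes passed. Of these 3 were higher (4.2% of all genes) and 1 was lower (3.93%). Between IF1-TG and IF1-KO mice no member passed both thresholds, where 3.69% of all genes did, and Ndufa13 and Ndufa9 had a P below 0.05, where 6.86% of all genes did. Between IF1-KO and CRL mice no member passed both, where 1.01% of all genes did, and Ndufaf5 alone had a P below 0.05, where 2.57% of all genes did. Without the array in doubt, no member passed both thresholds in either IF1-KO contrast, and a P below 0.05 was left to Ndufa9 alone (7.45% of all genes) in the first and to Ndufaf5 alone (3.11%) in the second. In limma's moderated F test over the 3 genotypes 4 members had a P below 0.05, Ndufa13, Ndufs8, Ndufa9 and Ndufv1, where 5.71% of all genes did. After Benjamini-Hochberg adjustment over the 27991 probes kept, limma gave no member and no other gene below 0.05 in any comparison.

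The narrow intervals of most members show how much of a change these arrays could have missed. Between IF1-TG and CRL mice the 95% interval of the difference lay within a 1.5-fold change either way for 31 of the 45 genes, against 45.8% of all genes. The same held for 27 members between IF1-TG and IF1-KO mice, against 46.6% of all genes, and for 33 members between IF1-KO and CRL mice, against 50.7%. Without the array in doubt the last 2 counts were 25 (36.3% of all genes) and 28 (39.2%). The median standard error of the IF1-TG minus CRL difference was 0.14 for the members and 0.19 for all genes. For the remaining members a change of 1.5-fold was not excluded by the interval.

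**Figure D1:**
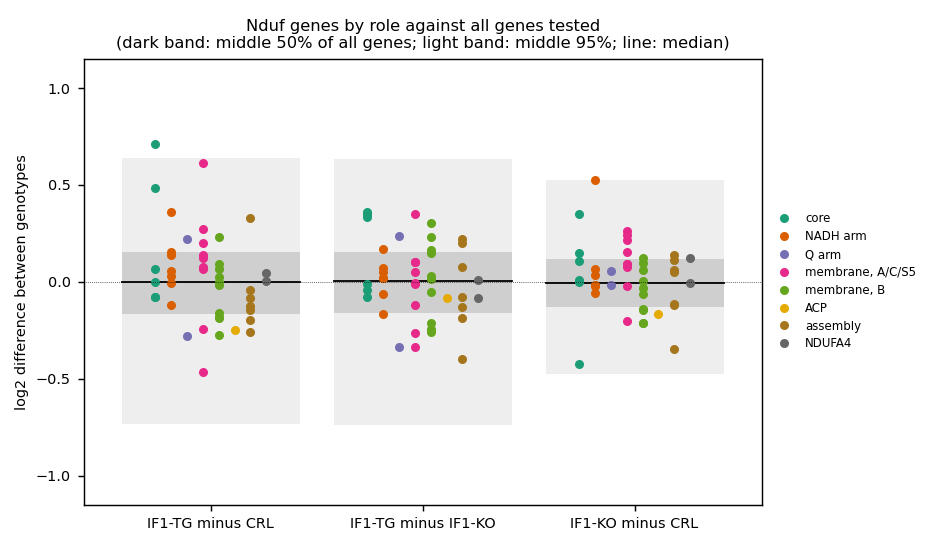
Log2 differences of 44 Nduf genes (points, coloured by role) in the 3 comparisons between genotypes, beside all 21897 genes tested (dark band, middle 50%; light band, middle 95%; line, median). The members spread on both sides of the all-gene median, and Ndufs8, at 0.71 between IF1-TG and CRL mice, is the member that lies above the light band.

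Among the 7 core subunits encoded in the nucleus, the higher values in IF1-TG mice belonged to Ndufs8 and Ndufv1. Ndufs8, which holds iron-sulfur clusters of the quinone arm, lay at 2.81, 2.93 and 2.71 on IF1-TG replicates 1 to 3. It lay at 1.85, 1.91 and 2.55 on CRL arrays and at 2.14, 2.68 and 2.55 on IF1-KO arrays. All 3 IF1-TG arrays thus lay above the other 6, while the third CRL array overlapped the IF1-KO arrays through the array in doubt, IF1-KO replicate 1, and was close to replicate 3. The IF1-TG minus CRL difference was 0.71 (standard error 0.22, 1.63-fold, 95% interval 0.22 to 1.20, limma unadjusted P = 0.0101, adjusted P = 0.488). It was 0.36 between IF1-TG and IF1-KO mice (limma unadjusted P = 0.133) and 0.20 leaving out the array labelled IF1-KO replicate 1. Between IF1-KO and CRL mice it was 0.35 (limma unadjusted P = 0.140), and 0.51 without that array (unadjusted P = 0.0525).

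Ndufv1, which binds NADH and the flavin, lay at 5.84, 5.59 and 5.67 on IF1-TG arrays. The CRL arrays read 4.95, 5.57 and 5.11 and the IF1-KO arrays 5.43, 5.38 and 5.28. The IF1-TG arrays were again the 3 highest, but the second CRL array came within the spread between replicates of the lowest of them. The IF1-TG minus CRL difference was 0.48 (standard error 0.17, 1.40-fold, 95% interval 0.10 to 0.87, limma unadjusted P = 0.0190, adjusted P = 0.532), below the fold threshold. Without CRL replicate 1 it was 0.35 and its P was 0.0713, without CRL replicate 3 the P was 0.0584, and without IF1-TG replicate 1 it was 0.0619.

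**Figure D2:**
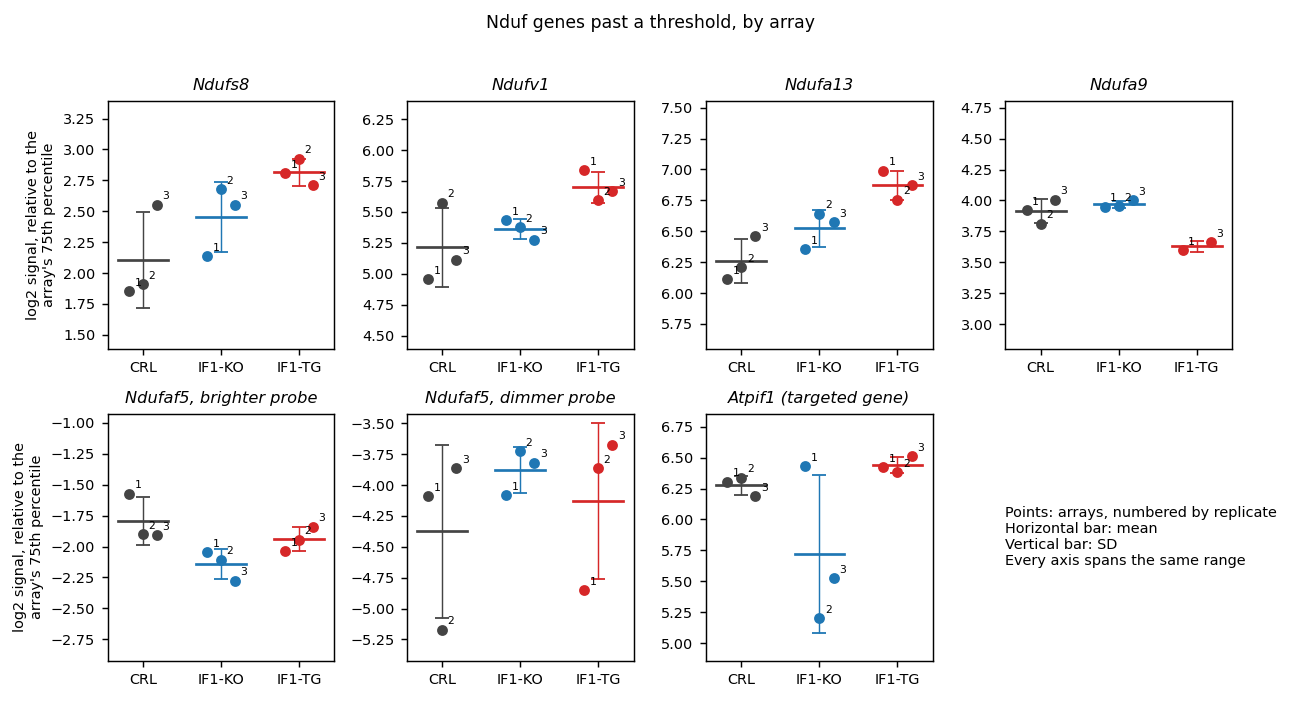
Log2 signal relative to the array's 75th percentile on each of the 9 arrays for the 5 Nduf genes with an unadjusted P below 0.05 in some comparison, both probes of Ndufaf5, and the targeted gene Atpif1 (points, numbered by replicate; horizontal bar, mean; vertical bar, SD; every axis spans the same range). The IF1-TG arrays are the highest 3 for Ndufs8, Ndufv1 and Ndufa13 and the lowest for Ndufa9, and for Atpif1 the array labelled IF1-KO replicate 1 lies above the CRL arrays and within the range of the IF1-TG arrays.

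No other core subunit passed a threshold in any comparison. Ndufs1, the iron-sulfur subunit that takes electrons from the flavin end, differed by -0.08 between IF1-TG and CRL mice, with a 95% interval from -0.33 to 0.17. Ndufs7, an iron-sulfur subunit of the quinone arm, differed by 0.07 in the same comparison, and Ndufv2, the partner of Ndufv1, by 0.00. The intervals of these genes all lay within a 1.5-fold change either way. Ndufs3, a subunit of the quinone arm that the study also followed as a protein, lay at 3.80, 4.41 and 4.61 on IF1-KO arrays and from 4.56 to 4.77 on CRL arrays. Its IF1-KO minus CRL difference of -0.42 (standard error 0.21, limma unadjusted P = 0.0807) rested largely on the array labelled IF1-KO replicate 1, the lowest of the 9. Without that array it was -0.19 and its P by limma was 0.296. Without IF1-KO replicate 3 it was -0.59 and its P was 0.0277, so that the call for Ndufs3 depends on which IF1-KO array is left out.

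No accessory subunit of the NADH-oxidizing arm passed a threshold. The median IF1-TG minus CRL difference of its 7 genes, Ndufv3, Ndufs4, Ndufs6, Ndufa2, Ndufa6, Ndufa7 and Ndufa12, was 0.06, with 5 higher and 2 lower. Ndufs4, an assembly-stabilizing subunit whose loss in mice causes an encephalopathy, was at 3.03 ± 0.16 (SD, n = 3) in IF1-TG, 3.09 ± 0.01 in IF1-KO and 3.15 ± 0.06 in CRL mice. Its IF1-TG minus CRL difference was -0.12 (95% interval -0.38 to 0.14). Ndufa2, a small subunit with a thioredoxin-like fold, had the largest IF1-KO minus CRL difference of the 45 genes, 0.52, but its CRL arrays ran from 4.13 to 5.23 and took in the IF1-KO values of 5.07 and 5.22. The limma P of that difference was 0.174. It was 0.0493, with a difference of 0.81, when CRL replicate 3 was left out, and 0.208, with a difference of 0.58, without the IF1-KO array in doubt. Ndufa12 had an outlier spot on CRL replicate 1 and was measured on 8 arrays.

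The 2 accessory subunits of the quinone arm went opposite ways. Ndufa9, which sits at the junction between the arms and was also followed as a protein, lay at 3.60 and 3.66 on IF1-TG replicates 1 and 3. The spot of replicate 2 was marked as an outlier and left out. The CRL arrays read 3.92, 3.81 and 4.0 and the IF1-KO arrays 3.95, 3.95 and 4.0, so that both measured IF1-TG arrays lay below all others. The difference was -0.34 between IF1-TG and IF1-KO mice (standard error 0.12, limma unadjusted P = 0.0245, adjusted P = 0.673), and -0.35 with the array labelled IF1-KO replicate 1 left out (unadjusted P = 0.0481). The P was 0.05 or more under 5 of the 20 alternatives run. It was 0.0675 when the third IF1-KO array was omitted. The 5 also include omitting the first or the third IF1-TG array, which leaves 1 measured IF1-TG array and a spread taken from the other genotypes. With normexp background correction the difference was -0.13 (limma unadjusted P = 0.440), and with slide as a fixed block it was -0.25 (limma unadjusted P = 0.240). It was -0.28 between IF1-TG and CRL mice (limma unadjusted P = 0.0495, adjusted P = 0.584), and that P was 0.05 or more under 13 of the 20 alternatives. With the outlier spot kept, the differences were -0.33 and -0.27 (limma unadjusted P = 0.0111 and unadjusted P = 0.0267). Ndufa5, the other subunit of this arm, lay at 5.37, 5.36 and 5.36 in IF1-TG mice, from 4.96 to 5.33 in CRL mice and from 4.96 to 5.22 in IF1-KO mice. The IF1-TG arrays were above all others, by a difference of 0.22 over CRL mice (limma unadjusted P = 0.124), but the dimmer Ndufa5 probe gave -0.06.

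In the proximal membrane arm Ndufa13 stood apart from the other 8 accessory subunits. Ndufa13, also known as GRIM-19, crosses the membrane at the foot of the quinone arm and is required for assembly. It lay at 6.99, 6.76 and 6.87 on IF1-TG arrays, at 6.11, 6.21 and 6.46 on CRL arrays and at 6.36, 6.64 and 6.57 on IF1-KO arrays. The IF1-TG arrays lay above all 6 others, and the IF1-KO and CRL arrays overlapped through the array in doubt alone, since IF1-KO replicates 2 and 3 lay above every CRL array. The IF1-TG minus CRL difference was 0.61 (standard error 0.14, 1.53-fold, 95% interval 0.30 to 0.93, limma unadjusted P = 0.00186, adjusted P = 0.371), and this was the smallest P of any member in any comparison. Its P stayed below 0.05 under all 20 alternatives, though several of these, such as leaving out an IF1-KO array, cannot change this difference. The fold fell under 1.5 with normexp (0.56), with quantile normalization (0.48), without CRL replicate 1 (0.54) and without IF1-TG replicate 1 (0.55). The IF1-TG minus IF1-KO difference was 0.35 (standard error 0.14, limma unadjusted P = 0.0332, adjusted P = 0.685), and with the array labelled IF1-KO replicate 1 left out it was 0.27 with a P of 0.117. Omitting the third IF1-KO array gave a P of 0.0572, and omitting the first or the third of the IF1-TG arrays gave 0.101 and 0.0641. It was also lost with normexp, at 0.21 (limma unadjusted P = 0.294), with quantile normalization, at 0.20 (limma unadjusted P = 0.266), and with the replicate number as a block (limma unadjusted P = 0.0514), so that 7 of the 20 alternatives gave a P of 0.05 or more. The IF1-KO minus CRL difference was 0.26 (limma unadjusted P = 0.0909), and 0.35 without that array (unadjusted P = 0.0528). A probe without an Nduf gene name, described as a predicted Ndufa13 variant, gave an IF1-TG minus CRL difference of 0.02 (limma unadjusted P = 0.910).

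Slides were compared as a technical batch for these genes, because IF1-TG replicates 1 and 2 were alone on a slide. On the slide that held IF1-TG replicate 3 and 2 CRL arrays, the IF1-TG minus CRL difference was 0.71 for Ndufa13, 0.83 for Ndufs8, 0.40 for Ndufv1 and -0.20 for Ndufa9. On the same slide, IF1-TG replicate 3 exceeded the array labelled IF1-KO replicate 1 by 0.52 for Ndufa13, 0.57 for Ndufs8 and 0.23 for Ndufv1, and lay 0.29 below it for Ndufa9 (difference -0.29). With slide as a fixed block the IF1-TG minus CRL difference stayed past both thresholds for Ndufa13 (0.70) and Ndufs8 (0.79), and for Ndufv1 it was 0.41 with a limma P of 0.167. The same fit gave -0.22 for Ndufa9 (limma unadjusted P = 0.262), no longer below 0.05, and brought Ndufaf1, an assembly factor, past both thresholds at 0.71 (limma unadjusted P = 0.00790). For these 4 genes every measured IF1-TG array lay above or below all other arrays, so that the direction within a slide was fixed beforehand. The within-slide values are therefore no test of the slides, and they rest on a lone IF1-TG array.

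The other subunits of the proximal membrane arm, Ndufa1, Ndufa3, Ndufa8, Ndufa10, Ndufa11, Ndufc1, Ndufc2 and Ndufs5, passed no threshold. The median IF1-TG minus CRL difference of the 9 genes was 0.12, with 7 higher and 2 lower. Ndufa8, a cysteine-rich subunit on the intermembrane side, had the lowest IF1-TG minus CRL value of all members, -0.47, with IF1-TG arrays at 1.11, 0.22 and 1.06 and CRL arrays at 1.73, 1.00 and 1.06. The value came from the second IF1-TG and the first CRL array, and the limma P was 0.127. Ndufa10, a subunit with a nucleoside kinase fold, lay at 2.88, 2.51 and 2.29 on IF1-TG arrays and from 2.83 to 2.97 on IF1-KO arrays. Its IF1-TG minus IF1-KO difference was -0.33 (limma unadjusted P = 0.126), and -0.49 without IF1-TG replicate 1 (unadjusted P = 0.0355). Without the IF1-KO array in doubt it was -0.37 (limma unadjusted P = 0.159). The probe of Ndufs5 is placed on chromosome 16, while RefSeq places the gene on chromosome 4.

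The 10 B-series subunits of the distal membrane arm that the array measures, Ndufb2 to Ndufb11, passed no threshold in any comparison. Their median IF1-TG minus CRL difference was -0.01, with 5 higher and 5 lower and a range from -0.27 to 0.23. The lowest was Ndufb10, a subunit of the intermembrane side, at 4.96, 5.39 and 5.64 on IF1-TG arrays against 5.47 to 5.79 on CRL arrays. Its first IF1-TG array was the lowest of the 9, and the same array was the lowest for Ndufb2, Ndufb3, Ndufb5, Ndufb7 and Ndufb8, so for 6 of the 10 genes, and for 10 of all 45 members. Ndufb9, of the same arm, ran from 5.87 to 6.46 in IF1-TG and from 5.79 to 5.87 in IF1-KO mice, a difference of 0.30 (limma unadjusted P = 0.123, and 0.28 without the array in doubt), and from 5.78 to 6.20 in CRL mice. The brightest probe of Ndufb11 is placed on chromosome 5, while the gene is on X. Its dimmer probe, on X, gave an IF1-TG minus CRL difference of 0.33 with a standard error of 0.35. Ndufab1, the mitochondrial acyl carrier protein that the complex holds and that also serves fatty acid synthesis, had the widest spread of all members, from -3.73 to -2.33 among the IF1-TG arrays. Its differences stayed between -0.25 and -0.09 and were smaller than their standard error of 0.45. Without the IF1-KO array in doubt the IF1-TG minus IF1-KO difference of Ndufab1 was -0.47 with a standard error of 0.43, and the IF1-KO minus CRL difference turned from -0.16 to 0.22. With each array left out in turn, all 3 of its differences were seen on both sides of 0.

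No assembly factor with an Nduf name passed a threshold between IF1-TG and CRL mice. With Ndufaf8, which the array carries under an older clone name, 7 of the 8 had a negative IF1-TG minus CRL difference, against 50.1% of all genes, and the median was -0.13. IF1-TG replicate 3 did not share this, with 5 of the 8 above their CRL mean, against 2 on each of the other IF1-TG arrays. Ndufaf1, a factor for the membrane arm, was the exception at 0.33 (limma unadjusted P = 0.200). The Ndufaf8 probe was dim, well above background on 7 of the 9 arrays, and its difference of -0.32 had a standard error of 0.71. With slide as a fixed block, where the IF1-TG values rest on replicate 3, Ndufaf1 passed both thresholds against CRL mice (0.71) and against IF1-KO mice (0.80, limma unadjusted P = 0.00651). In that fit Ndufaf4, an early assembly factor, was at -0.55 against CRL mice (limma unadjusted P = 0.00757) and -0.50 against IF1-KO mice (limma unadjusted P = 0.0163). Ndufaf6, which acts early in assembly, had the lowest IF1-TG minus IF1-KO value of all members, -0.40, through IF1-TG replicate 1 at -1.87, while the other 8 arrays lay between -1.09 and -0.66. The limma P of this difference was 0.192, and without the IF1-KO array in doubt the difference was -0.47 with the same P.

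Ndufaf5, a methyltransferase-like enzyme that hydroxylates the core subunit Ndufs7, was the member with a P below 0.05 between IF1-KO and CRL mice. Its brighter probe lay at -2.05, -2.11 and -2.28 on IF1-KO arrays and at -1.57, -1.90 and -1.91 on CRL arrays. All IF1-KO arrays lay below all CRL arrays. The difference was -0.35 (standard error 0.13, limma unadjusted P = 0.0303, adjusted P = 1.00), and -0.40 with the array labelled IF1-KO replicate 1 left out (unadjusted P = 0.0361). The dimmer probe went the other way, with IF1-KO arrays at -4.08, -3.73 and -3.82, CRL arrays at -4.09, -5.17 and -3.86 and a difference of 0.50 (standard error 0.39, limma unadjusted P = 0.236). With the mean of both probes the difference was 0.08, so that the direction for Ndufaf5 depends on the probe. Without CRL replicate 1 the brighter probe gave -0.24 with a P of 0.110, and without IF1-KO replicate 2 or 3 its P was 0.0523 and 0.107. Under 7 of the 20 alternatives its P was 0.05 or more, among them normexp (-0.26, limma unadjusted P = 0.104) and slide as a fixed block (-0.29, limma unadjusted P = 0.0680).

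Ndufa4 and Ndufa4l2, which carry the family name although the Ndufa4 protein is now placed with complex IV, passed no threshold. Their IF1-TG minus CRL differences were 0.01 and 0.04, and their intervals lay within a 1.5-fold change either way in each comparison.

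**Figure D3:**
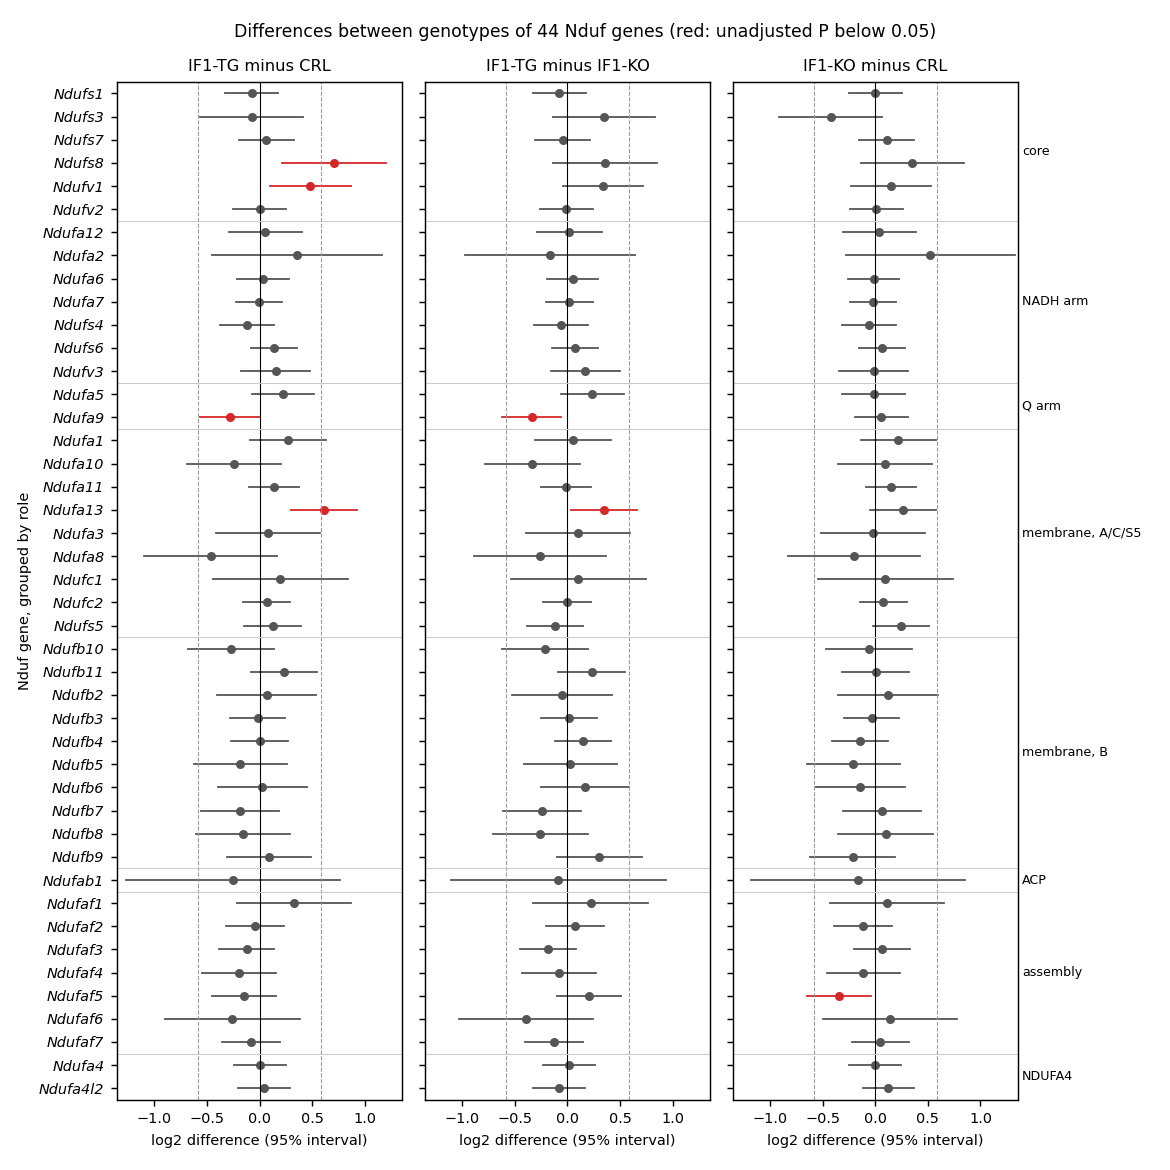
Log2 differences with 95% intervals of 44 Nduf genes in the 3 comparisons between genotypes, grouped by role (red, unadjusted P below 0.05; dashed lines, 1.5-fold either way). Ndufs8, Ndufv1 and Ndufa13 lie to the right and Ndufa9 to the left between IF1-TG and CRL mice, and most other intervals span 0 within the dashed lines.

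The groups were also compared by whether their arrays overlapped. Every IF1-TG array lay above every IF1-KO and CRL array for 4 members, Ndufa13, Ndufs8, Ndufv1 and Ndufa5, where 3.1% of all genes did so, and below all of them for Ndufa9, where 1.84% did. Between IF1-TG and CRL mice alone the arrays did not overlap for 8 members, where 12.1% of all genes were separated, and 7 of the 8 were higher in IF1-TG mice (6.66% of all genes). Beside the 4 genes above these were Ndufa11, Ndufb11 and Ndufs6, with differences of 0.14, 0.23 and 0.14. Between IF1-TG and IF1-KO mice 8 members did not overlap (13.4% of all genes), and between IF1-KO and CRL mice 5 did not (8.06%). With 2 IF1-KO arrays, once the array in doubt was left out, these counts were 19 (27.1% of all genes) and 12 (21.2%). These counts are descriptions with 3 arrays a genotype.

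**Figure D4:**
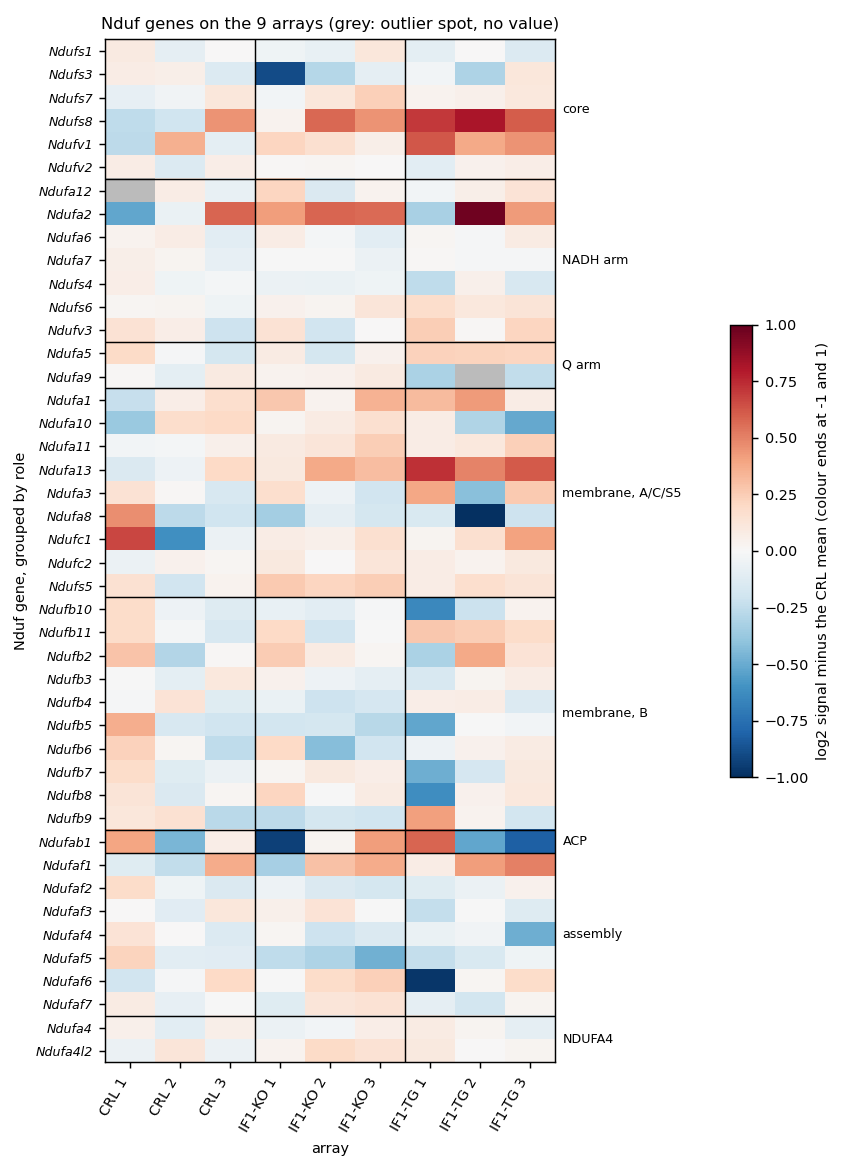
Log2 signal minus the CRL mean for 44 Nduf genes (rows, grouped by role) on the 9 arrays (columns), with outlier spots in grey. Ndufs8, Ndufv1 and Ndufa13 are red across the 3 IF1-TG arrays, lie above the CRL mean on the IF1-KO arrays too, and change colour among the CRL arrays. Ndufab1 changes colour among the arrays of each genotype, and Ndufa2 among the IF1-TG and the CRL arrays.

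The members also differed in how well they were measured. The SD within genotypes had a median of 0.15 over the members, against 0.24 over all genes tested. It was highest for Ndufab1 (0.64), Ndufa2 (0.50), Ndufc1 (0.39), Ndufaf6 (0.38) and Ndufa8 (0.38), and several of the extreme differences above belong to these genes. Per array, 17 to 30 members lay above their CRL mean on CRL arrays, 23 to 27 on IF1-KO arrays and 23 to 31 on IF1-TG arrays.

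Complex I also contains subunits encoded by mitochondrial DNA, which have other names on the array. By description 7 probes of these subunits were found, after the data had been seen, and all were well above background on every array. Their median IF1-TG minus CRL difference was 0.16, with a range from -0.11 to 0.74. The largest belonged to a probe described as chain 6 of the NADH-ubiquinone oxidoreductase, a membrane subunit, which lay at -2.96, -3.29 and -2.52 on IF1-TG arrays and at -3.48, -3.52 and -4.01 on CRL arrays (limma unadjusted P = 0.0213, adjusted P = 0.541). That P was 0.05 or more without CRL replicate 3 or IF1-TG replicate 3, and the difference ran from 0.54 to 1.16 over the 20 alternatives. The probe described as subunit 1 lay at 3.74, 4.31 and 4.17 on IF1-KO arrays and at 4.64, 4.63 and 4.45 on CRL arrays. The IF1-KO minus CRL difference was -0.50 (standard error 0.16, limma unadjusted P = 0.0129, adjusted P = 1.00), and -0.33 (unadjusted P = 0.0393) leaving out the array in doubt. The IF1-TG minus IF1-KO difference of this probe was 0.39 (limma unadjusted P = 0.0386), and 0.22 (unadjusted P = 0.136) without that array, and its P was 0.05 or more under 11 of the 20 alternatives. Each comparison thus had 1 of the 7 probes at a P below 0.05, which can be read beside the shares of all genes given above. Of the 7 probes, 5 are placed on the mitochondrial genome and the other two on chromosome 1.

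Genes that work with complex I gave the following. Of 13 assembly factors without an Nduf name, 1 passed both thresholds, Tmem126a, a membrane arm factor, with an IF1-TG minus IF1-KO difference of -0.95 (limma unadjusted P = 0.0485, adjusted P = 0.699). Its IF1-TG arrays lay at -1.21, -0.51 and -0.31 and its IF1-KO arrays at 0.07, 0.42 and 0.35, but a CRL array lay at -1.10. Without the IF1-KO array in doubt the Tmem126a difference was -1.06 and its P was 0.0627 by limma. At P below 0.05 alone the IF1-TG minus IF1-KO difference was 0.35 for Ecsit and -0.45 for Tmem70, and without that array 0.42 and -0.53, with P still below 0.05. These calls were not stable, since of 20 alternatives 12 gave a P of 0.05 or more for Ecsit, 10 for Tmem126a and 5 for Tmem70, and all 3 were lost without CRL replicate 1. None of the 4 subunits of complex II and none of the 9 of complex III passed both thresholds in any comparison, and Uqcrq of complex III, at 0.43 between IF1-TG and IF1-KO mice, had a P of 0.0330 by limma, and was at 0.33 with a P of 0.115 without the array in doubt, 1 of the 7 alternatives out of 20 under which the call was lost. Of 17 complex IV subunits tested, Cox7b2, an isoform known mainly from testis, was lower in IF1-TG than in CRL mice by 1.68 log2 units (difference -1.68, limma unadjusted P = 0.000587, adjusted P = 0.327). Its probe was well above background on 8 of the 9 arrays, all but IF1-TG replicate 1, so that the sizes of its differences are uncertain. They ran from -2.06 to -0.64 over the 19 alternatives that keep the probe, the smallest with normexp, and the P stayed below 0.05. Between IF1-TG and IF1-KO mice the Cox7b2 difference was -1.85 (limma unadjusted P = 0.000305, adjusted P = 0.424), and -1.78 without the array in doubt (limma unadjusted P = 0.00165), with a range from -2.23 to -0.89 over the same alternatives. No other complex IV subunit had a P below 0.05 in any comparison with all 9 arrays, but without that array Cox7b passed both thresholds for IF1-TG against IF1-KO mice at -0.82 (limma unadjusted P = 0.0351). None of the 8 transcriptional regulators of respiratory chain genes passed both thresholds, and all 8 had a negative IF1-KO minus CRL difference, where 51.9% of all genes did, with a median of -0.19 and no P below 0.05. The median was -0.18 without the IF1-KO array in doubt and -0.12, with 6 of the 8 negative, without CRL replicate 1, on which 7 of the 8 lay above their CRL mean. Of these, Yy1 had an IF1-TG minus IF1-KO difference of 0.30 (limma unadjusted P = 0.0342, adjusted P = 0.686), and 0.39 without the array in doubt (unadjusted P = 0.0155), but 7 of the 20 alternatives gave a P of 0.05 or more. With each array left out in turn, 0 to 1 complex II and no complex III subunit passed both thresholds in a comparison, 0 to 4 complex IV subunits did, and 0 to 2 regulators did, so that the calls of these lists other than Cox7b2 depend on single arrays.

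Promoters are shown for the 3 members that were higher together in IF1-TG mice. The 250 bases before the RefSeq start of each are given 5′ to 3′ from GRCm38.p6, a different build from that of the probe positions, in lower case.
Ndufs8, chr19:3912775-3913024, minus strand: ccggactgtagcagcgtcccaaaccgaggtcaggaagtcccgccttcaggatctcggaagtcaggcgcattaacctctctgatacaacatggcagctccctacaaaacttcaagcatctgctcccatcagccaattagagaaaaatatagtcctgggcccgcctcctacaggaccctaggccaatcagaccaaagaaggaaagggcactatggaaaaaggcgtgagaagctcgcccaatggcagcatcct
Ndufv1, chr19:4012756-4013005, minus strand: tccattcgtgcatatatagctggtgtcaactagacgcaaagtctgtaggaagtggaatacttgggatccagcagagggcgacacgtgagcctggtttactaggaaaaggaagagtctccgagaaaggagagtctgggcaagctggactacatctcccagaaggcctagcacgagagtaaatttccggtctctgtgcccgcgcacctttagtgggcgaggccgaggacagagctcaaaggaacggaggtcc
Ndufa13, chr8:69902021-69902270, minus strand: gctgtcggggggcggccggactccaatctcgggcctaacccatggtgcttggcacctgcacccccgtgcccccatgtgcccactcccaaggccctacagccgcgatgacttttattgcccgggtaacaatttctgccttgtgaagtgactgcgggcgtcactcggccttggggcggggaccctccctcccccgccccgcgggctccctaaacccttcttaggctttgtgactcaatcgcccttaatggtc
None of the motifs named next was found in these stretches, so that nothing is capitalized.

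The motifs searched, on both strands of 250 bases before to 50 after the start, were GCATGCGC for NRF1, TCAAGGTCA for ERR, CCGGAAGT for ETS factors such as GABP and AAGATGGCG for YY1. None of these motifs lies within another. Of the 45 genes 39 had a promoter in the RefSeq table. The NRF1 letters were found in 5 of the 39, Ndufa11, Ndufa6, Ndufa8, Ndufaf4 and Ndufaf5, where 3.05% of the 27025 genes with a promoter held them. The YY1 letters were found in 5, Ndufa9, Ndufc1, Ndufs4, Ndufs6 and Ndufs7, against 1.64% of all genes. The ETS letters were found in Ndufs3, against 4.31% of all genes, and the ERR letters in no member, against 0.466%. The 2 members called by P that hold a match have it just after the start, in stretches of 30 bases with the match in capitals.
Ndufa9, YY1 letters, chr6:126849097-126849126, minus strand: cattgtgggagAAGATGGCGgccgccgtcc
Ndufaf5, NRF1 letters, chr2:140170652-140170681, plus strand: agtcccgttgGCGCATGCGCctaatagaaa
In Ndufaf5 the letters are read on both strands of the same stretch. These matches describe the sequence only.

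Markers of other cells were examined beside the members that differed in IF1-TG mice. Of 6 oligodendrocyte markers 3 were higher and 3 lower in IF1-TG than in CRL mice, with a median of -0.01 and a range from -0.40 to 0.45, and 1 had a P below 0.05, the myelin enzyme gene Cnp at 0.45 (limma unadjusted P = 0.00888, adjusted P = 0.470). The medians were larger in size in the IF1-KO contrasts. Against IF1-KO mice 4 of the 6 were higher in IF1-TG mice, with a median of 0.26 and Cnp at 0.49 (limma unadjusted P = 0.00550), and without the array in doubt the median was 0.45, with 3 of the 6 at a P below 0.05. Without IF1-KO replicate 2 the same median was 0.05. Between IF1-KO and CRL mice 5 of the 6 were lower, with a median of -0.27, or -0.37 without that array, and none had a P below 0.05. The mean log2 level of the 6 ran from 3.14 to 3.21 on IF1-TG arrays, from 3.00 to 3.33 on CRL arrays and from 2.71 to 3.13 on IF1-KO arrays. All 4 striatal markers had negative IF1-TG minus CRL and IF1-KO minus CRL differences, with medians of -0.66 and -0.56. Of these, the adenosine receptor gene Adora2a passed both thresholds in both comparisons, with a P of 0.05 or more under 11 of the 20 alternatives in the first and 1 in the second. Their mean level was -2.04, -2.34 and -0.97 on CRL replicates 1 to 3, so that CRL replicate 3 stood apart, and ran from -2.58 to -2.09 on IF1-KO arrays and from -2.63 to -2.41 on IF1-TG arrays. Without CRL replicate 3 the medians were -0.24 and -0.17, with 3 and 2 of the 4 markers negative, and Adora2a passed both thresholds between IF1-KO and CRL mice only.

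Choroid plexus and blood markers varied from array to array of the same genotype. The mean of 5 choroid plexus markers was 3.21, -1.24 and -1.72 on IF1-TG replicates 1 to 3, -0.95, 2.11 and -1.87 on CRL arrays and -1.53, -2.44 and 1.92 on IF1-KO arrays, so that 1 array of each genotype stood far above the others. The median differences of 0.37 for IF1-TG against CRL, 0.87 for IF1-TG against IF1-KO and -0.47 for IF1-KO against CRL mice had no P below 0.05 behind them, and with each array left out in turn they ran from -1.14 to 1.75, from -0.79 to 2.13 and from -1.83 to 0.89. The list thus had no stable direction. The mean of 3 blood markers ran from -1.27 to 1.34 on 8 arrays and lay above all of these on CRL replicate 2, again with no P below 0.05 in any comparison. Without CRL replicate 2 all 3 passed both thresholds, with medians of 1.61 in IF1-TG over CRL and 1.97 in IF1-KO over CRL mice. Markers of inhibitory neurons, astrocytes and microglia were compared in the same way. Of 6 inhibitory neuron markers 4 were lower in IF1-TG than in CRL mice, with a median of -0.22, and the median deviation of the measured markers from the CRL mean was -0.42 on IF1-TG replicate 1, where 5 were measured, and from -0.23 to 0.03 on the other 8 arrays. The vesicular transporter gene Slc32a1 of this list had an IF1-TG minus IF1-KO difference of 0.29 (limma unadjusted P = 0.0486), lost under 15 of the 20 alternatives and turned to -1.29 with the mean of its probes. The 5 astrocyte markers had medians of -0.13, 0.06 and -0.12 for IF1-TG against CRL, IF1-TG against IF1-KO and IF1-KO against CRL mice, and the 6 microglia markers 0.05, 0.12 and -0.06, with no P below 0.05. The 8 markers of hippocampal excitatory neurons had medians of 0.10, 0.07 and 0.02 in the same order, also with no P below 0.05. Without the IF1-KO array in doubt the water channel gene Aqp4 of the astrocyte list passed both thresholds for IF1-TG against IF1-KO mice at 0.59 (limma unadjusted P = 0.0127), as did Zbtb20 of the excitatory neuron list at 0.80 (limma unadjusted P = 0.0314). In the same fit Prox1 of that list passed both between IF1-KO and CRL mice at -0.65 (limma unadjusted P = 0.0274). With each array left out in turn, 0 to 2 markers of these 4 lists had a P below 0.05 in any comparison. The part of any of these cells, and of the smaller share of probes well above background on IF1-TG arrays, in the Nduf values was not tested.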

How the data were processed

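Hippocampal RNA of 9 mice was hybridized to 9 arrays on 3 slides, and groups follow the sample labels. The authors deposited the Agilent Feature Extraction 10.7.3.1 output, in which the processed spot intensity has had spatial trends of the array removed, with no normalization between arrays. The deposited mean and local background intensities served the normexp alternative (offset 50). Neither control spots nor spots marked as outliers were used, log2 intensities were taken relative to the 75th percentile of each array, and a probe was kept if all 3 arrays of some genotype had it well above background (27991 of 39429). All 9 arrays entered 1 genotype model in limma 3.58.1 (lmFit, eBayes; R 4.3.3), tested on simulated data. P values are unadjusted unless called adjusted (Benjamini-Hochberg over the probes kept). A gene is its brightest probe.

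Members and gene lists were chosen with earlier results of these data known. Of the members, 1 is counted but neither named nor plotted here. Named were core subunits, Ndufa9 and Ndufs4, every member with P below 0.05, the 3 largest increases and decreases per comparison, and list genes past the thresholds; others were named after their values were seen. Each array is 1 mouse per the labels, and the number of arrays limits the precision. Alternatives were normexp, quantile normalization, other filters on dim probes, slide or replicate number as a block, trend and robust eBayes, fits of 2 genotypes, the mean of a gene's probes, outlier spots kept (chosen after seeing the data) and each array left out in turn. Promoters are from RefSeq (GRCm38.p6), matched by symbol.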

Additional observations from a re-analysis of the deposited data

How the results depend on the processing

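The small number of arrays limits every value, and counts of a few members move with most choices. Between IF1-TG and CRL mice the members past both thresholds fell from 2 to 1 with normexp and with quantile normalization. It was Ndufs8 alone each time, where 2.74% and 4.02% of all genes passed. With slide as a fixed block, the IF1-TG values rest on replicate 3, because replicates 1 and 2 shared a slide with no other genotype. In that fit the median IF1-TG minus CRL difference was 0.079 for the members and 0.039 for all genes. Ndufaf1 joined Ndufa13 and Ndufs8 past both thresholds, where 7.32% of all genes passed. In the contrast of IF1-TG with IF1-KO mice 2 members (Ndufaf1 and Ndufs8) passed both thresholds (4.78% of all genes). There 4 members had a P below 0.05 (6.32% of all genes). The members with a P below 0.05 between IF1-TG and IF1-KO mice fell from 2 to 0 with normexp (6.93% of all genes). With quantile normalization they were Ndufa9 and Ndufb7 (6.73% of all genes). The median of all 45 members then became -0.044, against -0.004 over all genes. Between IF1-KO and CRL mice the count of 1 became 0 with slide as a fixed block (2.28% of all genes). It was 0 with the mean of a gene's probes (2.55%), where Ndufaf5 turned to 0.076, and 2 with trend and robust eBayes (2.4%). With normexp it stayed at 1 (2.41%), but was Ndufs5 in place of Ndufaf5. The F test gave 2 members in place of 4 with normexp, with quantile normalization, with no filter on dim probes and with slide as a random block.

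Replicate numbers did not pair the arrays, since the correlations of same-numbered deviations ran from -0.17 to 0.12. With the replicate block 1 member had a P below 0.05 for IF1-TG against IF1-KO mice (6.54% of all genes). Between IF1-KO and CRL mice the count was 0 (2.63%). The F test gave 2, and 2 members remained past both thresholds between IF1-TG and CRL mice (4.09% of all genes).

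With each array left out in turn, 0 to 3 members passed both thresholds between IF1-TG and CRL mice (3.43% to 6.67% of all genes). None did for IF1-TG against IF1-KO mice (2.2% to 5.94%). Between IF1-KO and CRL mice 0 to 1 did (0.639% to 3.55%). There Ndufs3 passed without IF1-KO replicate 3 and Ndufa2 without CRL replicate 3. The 0 between IF1-TG and CRL mice came without CRL replicate 1, where Ndufa13 and Ndufs8 kept a P below 0.05 but not the fold. Without IF1-TG replicate 1 that count was 1 (Ndufs8). Members with a P below 0.05 ranged from 2 to 5, from 1 to 3 and from 0 to 4 in the same order. Over all genes the shares ran from 5.73% to 11.4%, from 3.75% to 9.56% and from 1.26% to 6.53%. The first count reached 2 without CRL replicate 3 or IF1-TG replicate 1. The second was 1 without IF1-TG replicate 1, IF1-KO replicate 1 or IF1-KO replicate 3. The third was 0 without IF1-KO replicate 2 and 4 without CRL replicate 3, where the all-gene share was also highest, at 6.53%. The F test gave 1 to 2. The medians ranged from -0.02 to 0.04, from -0.02 to 0.03 and from -0.01 to 0.05. Ndufa13 and Ndufs8 kept a P below 0.05 between IF1-TG and CRL mice under every alternative run. Several alternatives, among them leaving out an IF1-KO array or keeping outlier spots, could not move these 2 differences, at most their estimated spread. The causes of the other changes were not tested.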

Other observations

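Between the probes of Ndufs8 and Ndufv1 on chromosome 19 (mm9), 6 other genes were tested, Aldh3b1, Unc93b1, 1700055N04Rik, Aldh3b2, Acy3 and Tbx10, chosen after the values had been seen. None had a P below 0.05 between IF1-TG and CRL mice by limma, 5 were higher, and their median difference was 0.14. The largest was that of Aldh3b1, an aldehyde dehydrogenase gene, at 0.51 (limma unadjusted P = 0.155).

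The array carries further probes that it describes as complex I transcripts without an Nduf gene name. A probe described as a predicted variant of Ndufa13 on chromosome 8 gave an IF1-TG minus CRL difference of 0.02, against 0.61 for the Ndufa13 probe of the report. Its levels were 2.37, 2.21 and 1.95 on the IF1-TG arrays and 2.31, 2.05 and 2.11 on the CRL arrays, so that the groups overlapped. A probe described as a variant of Ndufb2 lay at 4.73, 3.41 and 4.77 on the IF1-TG arrays and from 4.53 to 4.78 on the CRL arrays, and its second IF1-TG array was the lowest of the 9.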
